A study of Mus musculus with 10 samples.

Results

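The core circadian clock loop is a set of transcription factors that switch one another on and off once a day. It was read here through 10 genes, Arntl (also called Bmal1), Clock, Npas2, Per1, Per2, Per3, Cry1, Cry2, Nr1d1 and Nr1d2, out of 16593 named genes on the array. The members were named from textbook knowledge of the clock, but they were chosen with earlier results of these data known. They are covered by 17 of 25697 probes. A member was taken as measured where the detection p of a probe, the share of negative controls at least as bright, was under 0.05 on 5 or more arrays. By that rule 9 of 10 members and 13 of their 17 probes were measured.

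The samples were of the ileum, the end of the small intestine where bile acids are taken back up, from 5 wild-type (WT) and 5 interferon-gamma knockout (IFNgKO) mice. All were C57Bl/6 males, 8 weeks old, kept specific-pathogen free on standard chow with no treatment, so these conditions are shared by both groups. The labels name neither the knockout allele nor the origin of the controls, and the sources used here do not give the time of day of collection. Each group was spread over array set 1 (2 samples) and array set 2 (3 samples). The samples are named by the numbers in their titles, WT_640 to WT_644 and IFNgKO_645 to IFNgKO_649, which the labels do not state to be separate animals, so a p-value here weighs a difference against sample-to-sample spread that may be technical.

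In the loop, the protein of Arntl pairs with that of Clock or its close relative Npas2, and the pair binds E-box sequences to switch on the Per, Cry and Nr1d genes. The PER and CRY proteins then return to the nucleus and block the pair. The proteins of Nr1d1 and Nr1d2, the nuclear receptors REV-ERB alpha and beta, shut down Arntl, Clock and Npas2 through sequences called ROREs. Activator and repressor genes therefore peak at nearly opposite times of day in most tissues. The gut clock is known to follow meal times and to pace absorption and cell renewal.

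The sequences through which the loop is wired are shown because the members are grouped below by the arm they belong to. RefSeq promoter windows of build GRCm38.p6, from 250 bases before to 50 after a gene start, were matched by symbol for 9 of the 10 members, in 13 windows. Both strands were searched for the E-box CACGTG, the weaker E'-box CACGTT, the D-box TTATGNAA bound by the output factors DBP, TEF, HLF and NFIL3, the RORE core ANTAGGTNA and the cyclic AMP element TGACGTCA. The E'-box is printed as it reads on the strand of the gene, and no match overlapped another. Capitals mark the matched letters.
Arntl, RORE core, chr7:113207494-113207514, plus strand: tggtcggaaAGTAGGTTAgtg
Arntl, RORE core, chr7:113207530-113207556, plus strand: aaggcagaaAGTAGGTCAgggacggag
Per1, E-box, chr11:69098774-69098797, plus strand: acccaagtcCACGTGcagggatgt
Per1, D-box, chr11:69098916-69098941, plus strand: ggcctggcaTTATGCAAcccgcctcc
Cry1, E-box, chr10:85185100-85185123, minus strand: gccggtggtCACGTGgggtgcatg
Cry1, E'-box, chr10:85185119-85185142, minus strand: cacttcagaAACGTGaggtgccgg
Cry2, E'-box, chr2:92434221-92434244, minus strand: catggtgggAACGTGagggggcgg
Nr1d1, E'-box, chr11:98775391-98775414, minus strand: acagatctcAACGTGccggctgct
Among all 32851 windows of this length, 7.15% held the E-box, 4.68% the E'-box, 3.38% the D-box, 2.04% the RORE core and 1.79% the cyclic AMP element. Arntl was the one member with a RORE core match, in both of its windows, 39 bases after one gene start and 29 bases after the other. The 0 matches of the cyclic AMP element in member windows say only that these letters were not in them.

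The 250 bases before the start of Per3 are given whole, because Per3 showed the largest difference between the genotypes among the members. They lie at chr4:151044666-151044915 on the minus strand and hold 2 D-boxes, in capitals, whose first bases lie at -205 and -158 from the gene start.
Per3: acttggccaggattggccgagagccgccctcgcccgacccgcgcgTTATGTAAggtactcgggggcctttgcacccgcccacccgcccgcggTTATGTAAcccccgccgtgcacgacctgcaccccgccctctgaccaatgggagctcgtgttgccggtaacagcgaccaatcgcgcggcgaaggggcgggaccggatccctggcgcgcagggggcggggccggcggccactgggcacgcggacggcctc

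Across the series, the arrays detected 10618 to 12975 probes each, and 12039 probes were tested. WT_641 stood apart: its array weight was 0.28, its mean correlation with the other arrays was the lowest (0.9485) and it had the fewest detected probes. Results that rest on it are also given without it. The ileal bile acid carrier Fabp6 (log2 level 15.01 ± 0.17 in the WT samples against 14.87 ± 0.074 in the knockout samples, SD, n = 5) and the brush border enzyme Sis (15.04 ± 0.25 and 15.28 ± 0.15) marked the tissue as labelled, while Slc10a2 and Fabp2 were detected on 0 of 10 arrays. The targeted gene could not check the genotype labels, because the 2 Ifng probes were detected on no array, with raw intensities of 66.9 to 110.7 and a lowest detection p of 0.0977.

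The knockout ileum had less Arntl and more Per3 and Nr1d2 than the WT ileum, and the other 6 measured members differed less on their brightest probe, but no member passed the test over all probes. In the knockout, 6 measured members were higher and 3 were lower. Of these 9, 0 passed an adjusted p of 5% (limma with Benjamini-Hochberg adjustment, array set fitted), where 0.0166% of all probes passed. An unadjusted p under 0.05 was reached by 2 members that were higher (Per3 and Nr1d2), against 5.86% of all tested probes, and by 1 that was lower (Arntl), against 6.38%. These counts take the brightest tested probe of each gene, and the second Per2 probe, which was higher, also had an unadjusted p under 0.05. This count of 3 was also 3 without WT_641, and 5 without WT_644. Differences are log2 knockout minus WT, on background-corrected and quantile-normalised values.

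**Figure D1:**
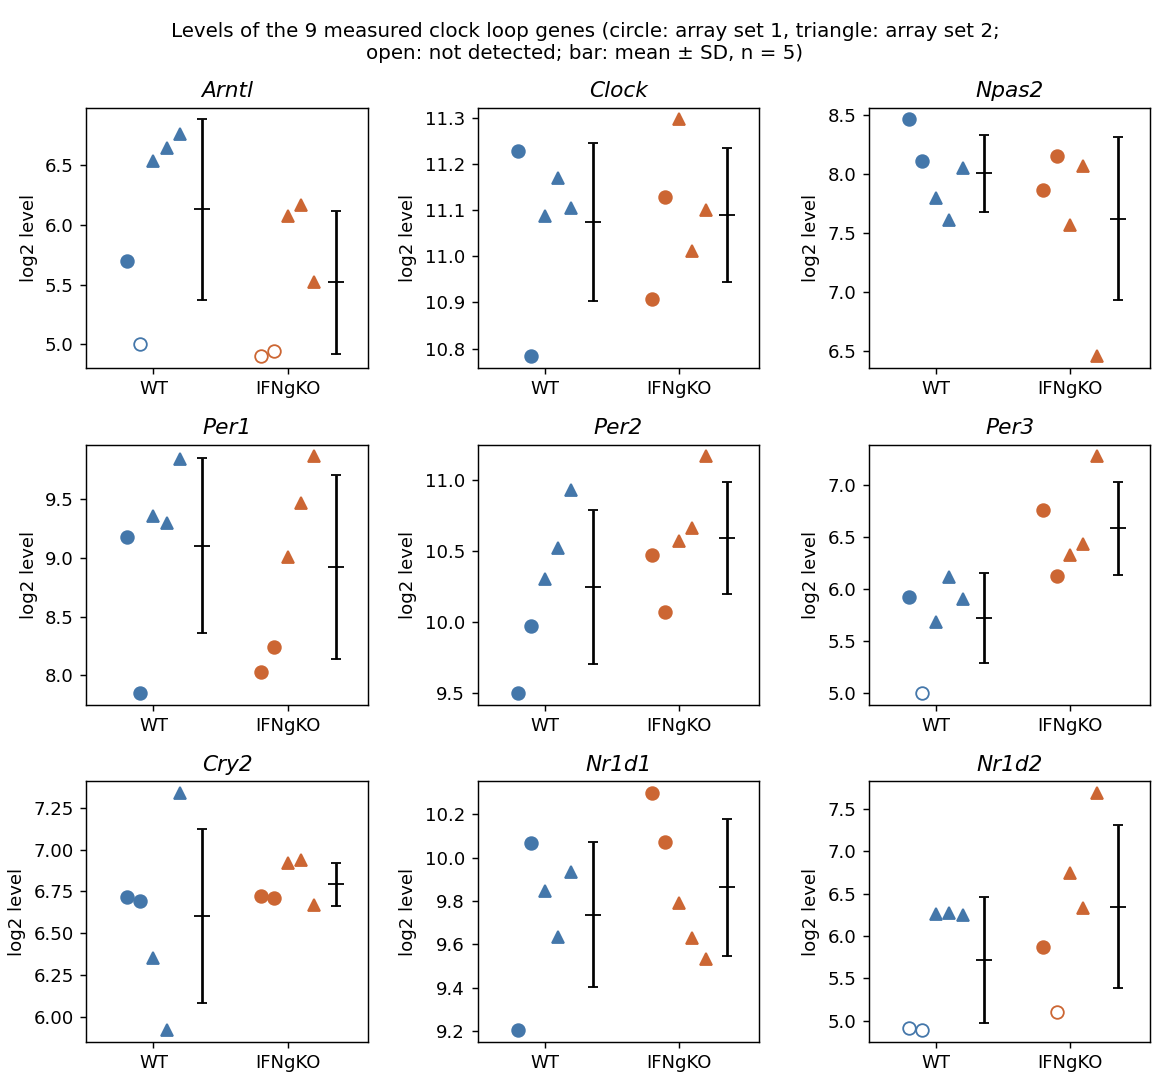
Log2 level (vertical axis) of each measured clock loop gene in the 5 WT and 5 IFNgKO samples. Circles are array set 1, triangles array set 2, open symbols arrays where the probe was not detected, and the bars are the mean ± SD (n = 5). All knockout samples lay above all WT samples for Per3 alone, and Arntl and Nr1d2 were on average lower in array set 1.

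Of the activators, Arntl is known as the clock gene whose loss alone stops daily rhythms in mice. Its log2 level was 5.70, 5.01, 6.53, 6.64 and 6.76 in WT_640 to WT_644 and 4.90, 4.95, 6.07, 6.16 and 5.52 in IFNgKO_645 to IFNgKO_649. In array set 2 all 3 knockout samples were below all 3 WT samples, and in array set 1 both knockout samples were below both WT samples. The probe was dim, with raw intensities of 96.4 to 180.1, and 4 of the 5 WT arrays and 3 of the 5 knockout arrays detected it. Both knockout arrays of array set 1 and WT_641 were those without detection. The difference was -0.61 ± 0.17 (SE, 0.656-fold; adjusted p = 0.242, limma). It was -0.43 within array set 1, -0.73 within array set 2 and -0.31 in the authors' value table. Without WT_641 it was -0.74 and without IFNgKO_649, the lowest of its array set, -0.48. When genotype was permuted within array sets, the exact two-sided p was 0.0167, the smallest that 120 assignments can give, unadjusted and for 1 of 9 members so examined.

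Npas2, which can stand in for Clock, was at 8.46, 8.11, 7.80, 7.61 and 8.05 in WT and at 7.86, 8.15, 7.57, 8.07 and 6.45 in the knockout. IFNgKO_649 was far below the rest and the other samples overlapped. The difference of -0.38 ± 0.24 (SE; adjusted p = 0.548, limma) was -0.13 without IFNgKO_649. Clock, whose protein is the usual partner of that of Arntl, was bright and even, at 11.23, 10.78, 11.09, 11.17 and 11.10 in WT and at 10.91, 11.13, 11.30, 11.01 and 11.10 in the knockout. Its difference of 0.01 ± 0.13 (SE; adjusted p = 0.978, limma) changed sign without WT_641 (-0.054). A dimmer Clock probe differed by -0.19 ± 0.24, and the remaining Clock probe was detected on 0 of 10 arrays.

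Of the repressors, the Per genes did not move as one. Per3, a PER protein that the core oscillator can do without, was at 5.93, 5.00, 5.68, 6.11 and 5.90 in WT and at 6.76, 6.12, 6.32, 6.43 and 7.27 in the knockout. Every knockout sample was above every WT sample, though IFNgKO_646 exceeded WT_643 by little. The probe was dim, with raw intensities of 98.3 to 242. The difference was 0.85 ± 0.22 (SE, 1.81-fold; adjusted p = 0.242, limma). It was 0.97 within array set 1 and 0.78 within array set 2. The exact permutation p within array sets was 0.0167, again the smallest that 120 assignments can give, unadjusted and for 1 of 9 members so examined. Without WT_641, where Per3 was not detected, the difference was 0.69. In the authors' value table, which holds no background subtraction, it was 0.44.

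Per2, a central PER protein of the repressor complex, was at 9.50, 9.97, 10.30, 10.52 and 10.93 in WT and at 10.47, 10.07, 10.57, 10.66 and 11.16 in the knockout. Within array set 1 both knockout samples were above both WT samples, while in array set 2 WT_644 lay among the knockout samples. The difference was 0.34 ± 0.18 (SE; adjusted p = 0.452, limma). Its second tested probe differed more, by 0.61 ± 0.19 (SE; unadjusted p = 0.008, adjusted p = 0.286, limma), as much as Arntl, so the probes of this gene disagree in size and share their sign. The remaining Per2 probe was detected on 2 of 10 arrays.

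Per1, the PER gene that responds fastest to light, feeding and stress hormones, was at 9.17, 7.85, 9.36, 9.29 and 9.84 in WT and at 8.03, 8.24, 9.003, 9.46 and 9.86 in the knockout. The groups overlapped throughout, and the larger step was between the array sets. The difference was -0.18 ± 0.24 (SE; adjusted p = 0.785, limma), and -0.16 ± 0.25 on a second probe. It turned to 0.050 without WT_640 and to 0.027 under median scaling. Without WT_641, the lowest WT sample, it was -0.36, and with array weights -0.35.

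The Cry genes encode the stronger transcriptional blockers of the loop. Cry1 was detected on 0 of 10 arrays, with raw intensities of 69.9 to 82.8 and a lowest detection p of 0.579, so it has no level here. Cry2 was at 6.72, 6.69, 6.35, 5.92 and 7.34 in WT and at 6.72, 6.71, 6.92, 6.94 and 6.67 in the knockout. The knockout values lay within the WT range, which was set by WT_643 and WT_644. The difference was 0.19 ± 0.22 (SE; adjusted p = 0.749, limma), and it was 0.0045 without WT_643 and 0.39 without WT_644.

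Of the REV-ERB genes, which repress Arntl, Nr1d2 was at 4.91, 4.89, 6.25, 6.27 and 6.24 in WT and at 5.87, 5.11, 6.74, 6.33 and 7.68 in the knockout. Within each array set every knockout sample was above every WT sample, and in array set 2 IFNgKO_648 was above by little. The probe was dim, with raw intensities of 94.8 to 299. Of the WT arrays 3 of 5 detected it, all of them in array set 2, and of the knockout arrays 4 of 5 did. For the genotype difference the exact permutation p within array sets was 0.0167, the smallest that 120 assignments can give. It is unadjusted and for 1 of 9 members so examined. The difference was 0.63 ± 0.22 (SE, 1.55-fold; adjusted p = 0.32, limma). It was 0.42 without IFNgKO_649 and 0.36 in the authors' value table.

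Nr1d1 was at 9.20, 10.07, 9.85, 9.63 and 9.94 in WT and at 10.30, 10.07, 9.79, 9.63 and 9.53 in the knockout. The array sets pointed opposite ways, with a difference of 0.55 in the former and -0.15 in the latter. The second tested probe gave 0.59 and -0.24, with an unadjusted p of 0.0434 for that contrast. The test of that contrast, a genotype by array set interaction, gave -0.70 ± 0.34 (SE; unadjusted p = 0.0633, adjusted p = 0.999, limma) and passed for 0 of 9 members and 0% of all probes. Pooled, Nr1d1 differed by 0.13 ± 0.19 (SE; adjusted p = 0.809, limma), or by -0.070 without WT_640, its lowest sample.

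**Figure D2:**
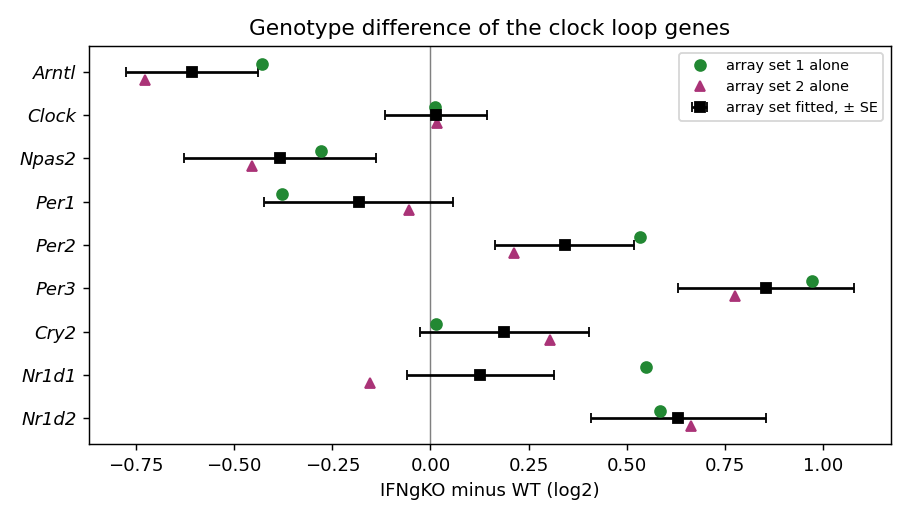
Log2 difference IFNgKO minus WT (horizontal axis) of each measured clock loop gene with array set fitted (square, bar ± SE), and in array set 1 (circle) and array set 2 (triangle) alone. Arntl lies at -0.61, Nr1d2 at 0.63 and Per3 at 0.85, each with both array sets on the same side of 0, whereas the array sets of Nr1d1 lie on opposite sides.

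The median difference of the 9 measured members was 0.13, beside 0.0044 for all tested probes. It was 0.014 within array set 1, 0.016 within array set 2, and from 0.027 (without WT_643) to 0.20 (without WT_644) when 1 sample was left out. Over all samples it was -0.38 over the 3 activators and 0.27 over the 6 measured repressors. In 8 of 9 members both array sets gave the same sign, but the share of all probes that did so was not counted. Some of these differences were near 0, as for Clock (0.011 and 0.016 for sets 1 and 2) and Cry2 (0.014 and 0.31). With the array set effect removed, the groups did not overlap for 2 members that were higher in the knockout, Per3 and Nr1d2, where 1.63% of all probes were apart in that direction, and for 0 that were lower, where 1.84% were. Without removing the array set effect the count was 1, Per3.

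The array sets themselves differed more for several members than the genotypes did. In array set 2 Nr1d2 was higher by 1.39 ± 0.23 (SE; adjusted p = 0.000656, limma), Per1 by 1.14 ± 0.24 (0.00484), Arntl by 1.14 ± 0.17 (0.000343) and Per2 by 0.69 ± 0.18 (0.0176). These 4 of 9 members rose past 5%, where 13% of all probes did, and 0 of 9 fell, where 6.28% did. Npas2 was lower in array set 2, at -0.56 ± 0.25 (SE; adjusted p = 0.133, limma). Activator and repressor genes were thus among those higher in the same array set. The second Per1 probe differed by 0.31 ± 0.25 between the sets (adjusted p = 0.387), against 1.14 for the first. The labels do not say what the array sets stand for.

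The balance of the arms was set per sample as the mean of the 3 activators less the mean of the 6 repressors, each gene as its log2 deviation from the mean of its array set. It was 0.47, 0.14, 0.41, 0.42 and 0.18 in WT_640 to WT_644 and -0.55, -0.06, -0.01, 0.08 and -1.10 in IFNgKO_645 to IFNgKO_649. Relative to the mean of their array set, all 5 WT samples were tilted towards the activators. IFNgKO_645 and IFNgKO_649 were tilted clearly towards the repressors, and the other 3 knockout samples lay near 0. Each array set held as many WT as knockout samples, so the group means mirror each other by construction, and a tilt of 1 group is relative to the other. The knockout balance was -0.33 ± 0.50 and the WT balance 0.33 ± 0.15 (SD, n = 5), a difference of -0.65. The members were chosen with such a tilt known, so no test is given.

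The gap between the groups was narrow, with the lowest WT sample at 0.14 and the highest knockout sample at 0.08. Over 17 other settings the groups stayed apart in 10 and overlapped in 7, among them the settings without background subtraction and those without WT_642, WT_643 or IFNgKO_645. The difference itself was -0.71 without WT_641, -0.44 without IFNgKO_649, -0.61 within array set 1 and -0.68 within array set 2. It was -0.38 in the authors' value table, and -0.30 over the members detected on all 10 arrays, which leaves out Arntl, Per3 and Nr1d2.

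**Figure D3:**
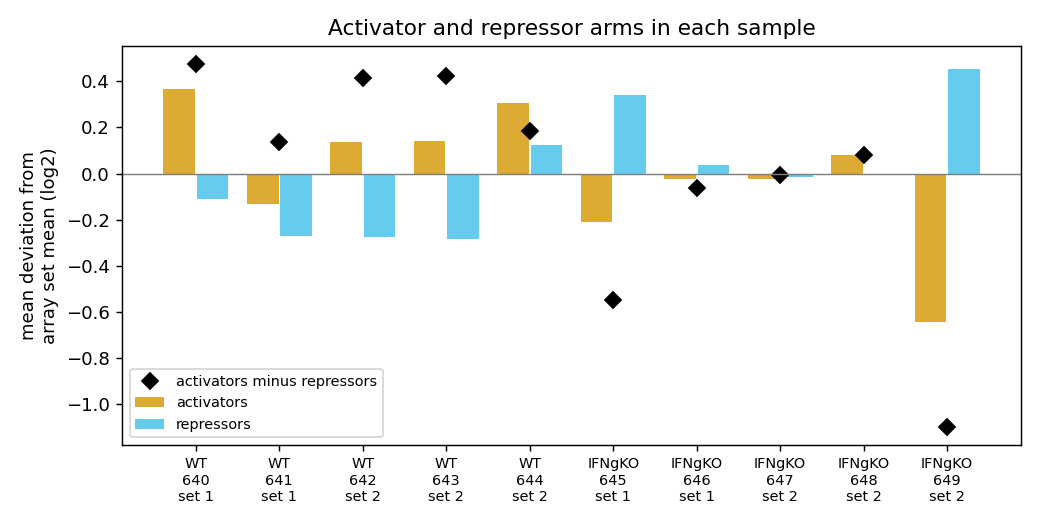
Mean log2 deviation from the array set mean (vertical axis) of the activators (gold bars) and repressors (blue bars) in each sample, with their difference as diamonds. The WT diamonds lie at 0.14 to 0.47 and the knockout diamonds at -1.10 to 0.08.

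To place the differences on the daily cycle, each member was given a time of peak, in the textbook order for mouse peripheral tissue. In whole hours after lights-on these times were 23 for Arntl, 0 for Clock and Npas2, 7 for Nr1d1, 9 for Nr1d2, 10 for Per3, 11 for Per1, and 13 for Per2 and Cry2. These times are assumed and were not measured in this ileum. A cosine of 24 h through the 9 differences had its top at 8.91 h with an amplitude of 0.44, and took up 0.551 of their variance. Members assumed to peak from 7 to 13 h were thus the higher ones in the knockout, apart from Per1, and those assumed to peak near lights-on were level or lower. Leaving out 1 member at a time moved the top to 7.72 h (without Nr1d1) to 9.42 h (without Per1), and it was at 13.2 h over the members detected on all 10 arrays.

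Taken sample by sample on the deviations, the top lay at 7.86, 6.42, 4.94, 18.10 and 9.74 h in IFNgKO_645 to IFNgKO_649 and at 19.21, 20.94, 1.08, 1.35 and 18.15 h in WT_640 to WT_644. IFNgKO_648 thus pointed the same way as the WT samples. Its amplitude of 0.17 was small, as were those of WT_641 (0.13) and IFNgKO_646 and IFNgKO_647 (both 0.09), against 0.46 in IFNgKO_645 and 0.68 in IFNgKO_649. Deviations from a mean say only how samples stand to one another, so no time of day can be read for either genotype, and the time of collection of the groups cannot be compared here.

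**Figure D4:**
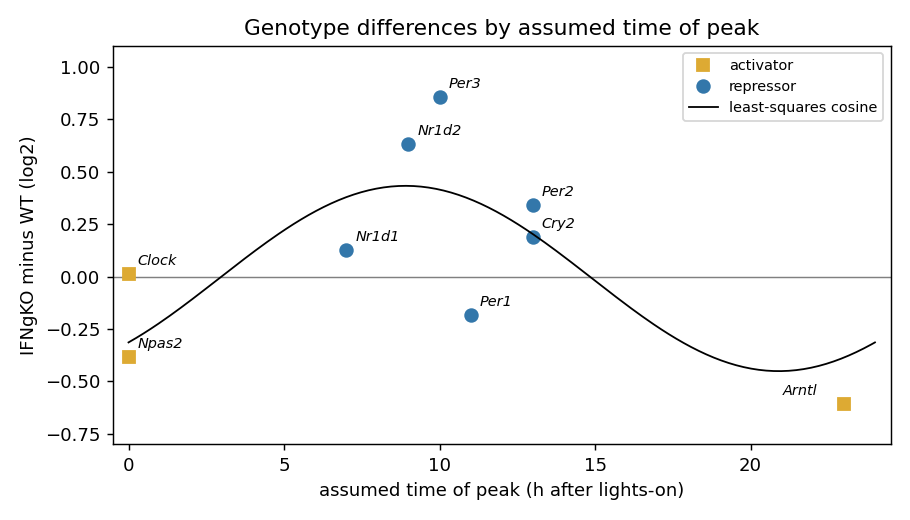
Log2 difference IFNgKO minus WT (vertical axis) of each measured clock loop gene against its assumed time of peak in hours after lights-on (horizontal axis), with activators as squares, repressors as circles and the least-squares cosine as a line. The line is highest at 8.91 h, and Per1 at 11 h lies below it.

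Among samples of 1 genotype and array set, a measure that the genotype comparison does not use, the members' residual log2 levels were set against each other in 36 pairs. All 3 activator pairs were positively related, and 13 of 18 activator-repressor pairs and 5 of 15 repressor pairs were negatively related. These signs include pairs near 0, such as Npas2 and Nr1d1 with a Pearson's r of -0.0026. The median r was -0.095 over the activator-repressor pairs and 0.27 over the repressor pairs. Clock and Npas2 had an r of 0.14, which was -0.14 without the 2 samples farthest from the median of Clock. Arntl and Npas2 had a Pearson's r of 0.81 (exact permutation p = 0.0208) and a Spearman's rho of 0.83 (exact p = 0.0347, n = 10), and r was 0.82 without the 2 samples farthest from the median of Arntl. Npas2 and Nr1d2, an activator and its repressor, had an r of -0.90 (exact permutation p = 0.0278) and a rho of -0.78 (exact p = 0.0347, n = 10), with r at -0.69 and an exact permutation p of 0.0833 without the 2 farthest. Npas2 and Cry2 had an r of 0.43 (exact permutation p = 0.0139) and a rho of 0.87 (exact p = 0.0208, n = 10), with r at 0.61 and an exact permutation p of 0.0833 without the 2 farthest. After adjustment over the 36 pairs 0 passed 5%, 3 had an unadjusted p under 0.05, and the lowest adjusted p was 0.333 (exact permutation within the 4 cells of genotype and array set; the smallest p it allows is 0.00694).

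The other clock regulators had 13 measured genes of 22 listed, 9 higher and 4 lower, with a median difference of 0.13, which was 0.072 without IFNgKO_649, 0.083 without WT_644 and 0.21 without WT_642. None of them passed 5% (limma). An unadjusted p under 0.05 was reached by 2 higher and 1 lower, against 5.86% and 6.38% of all tested probes. Ciart, a repressor of the Clock-Arntl pair, was higher by 0.83 ± 0.26 (SE; adjusted p = 0.286), and Timeless, a replication protein named after a fly clock gene, by 0.57 ± 0.20 (0.305). Bhlhe40, which competes for E-boxes, was higher by 0.29 ± 0.14 (0.42), and Gsk3b, a kinase that acts on clock proteins, lower by -0.38 ± 0.14 (0.341).

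The D-box factors downstream of the loop gave Dbp at 1.05 ± 0.18 (SE; adjusted p = 0.144, limma), Tef at 0.48 ± 0.22 (0.401), Hlf at -0.05 ± 0.14 (0.899) and their repressor Nfil3 at -0.89 ± 0.24 (0.242). Of these 4 genes 0 passed 5%. An unadjusted p under 0.05 was reached by 2 higher and 1 lower, against 5.86% and 6.38% of all tested probes.

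Rhythmic output genes of gut and liver had 11 measured of 18 listed, with 3 higher, 8 lower and a median of -0.30. None passed 5% (limma). An unadjusted p under 0.05 was reached by 0 higher and 5 lower, against 5.86% and 6.38% of all tested probes. Apoa4, an apolipoprotein of chylomicrons, was at -1.21 ± 0.47 (SE; adjusted p = 0.355), Pdk4, a brake on glucose oxidation, at -0.63 ± 0.21 (0.297), the deadenylase Noct at -0.51 ± 0.20 (0.361) and the cell cycle inhibitor Cdkn1a at -0.38 ± 0.13 (0.299).

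Signals that enter the clock through Per1 were looked at through 2 further lists. Glucocorticoid-responsive genes had 9 measured of 10 listed, 3 higher and 6 lower, with a median of -0.17, and the immediate-early genes had 8 of 11, 4 higher and 4 lower, with a median of -0.03. Neither list had a member past 5% (limma), with 0 higher and 2 lower, and 1 higher and 0 lower, at an unadjusted p under 0.05. Of all tested probes, 5.86% were higher and 6.38% lower at that p. The metallothioneins Mt2 (-1.10 ± 0.22, SE; adjusted p = 0.175) and Mt1 (-0.57 ± 0.17, 0.272) came first by p in the former, ahead of Ddit4 (-0.34 ± 0.17, 0.449) and the kinase Sgk1 (-0.42 ± 0.31, 0.6). In the latter Atf3 (0.60 ± 0.27, 0.406), Fos (0.57 ± 0.31, 0.469), Junb (-0.39 ± 0.21, 0.474) and Egr1 (0.34 ± 0.39, 0.747) came first.

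Outside these lists, the genes whose array-set-centred levels were most like the balance over the 10 samples were Hsd17b2, a steroid dehydrogenase (Pearson's r = 0.94), Lrrc1 (0.92) and Myo10, an unconventional myosin (0.92). Those most unlike it were Gsta4, a glutathione transferase (-0.95), Idh3b, a subunit of a citrate cycle enzyme (-0.93), and Ms4a7 (-0.92). They are the extremes of all named genes measured and are given as a description with no test. Their own differences ran from -0.53 ± 0.14 (SE, Myo10) to 0.40 ± 0.16 (Ms4a7), with adjusted p-values (limma) of 0.239 for Myo10, 0.384 for Gsta4, 0.419 for Idh3b, 0.364 for Ms4a7, 0.573 for Lrrc1 and 0.356 for Hsd17b2.

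Markers of other cells were read in the same samples. In whole tissue, fewer cells of a type and less RNA per cell cannot be told apart. All 5 measured T cell markers and all 7 macrophage markers were higher in the knockout, with medians of 0.47 and 0.35. At an unadjusted p under 0.05, 5.86% of all tested probes were higher, and so were 4 T cell and 3 macrophage markers. Their mean log2 level per sample ran from 6.41 to 6.58 in WT and from 6.54 to 7.42 in the knockout for T cells, with Cd4 and Cd8a detected on no array, and from 7.67 to 8.38 and from 8.16 to 8.63 for macrophages. Among the markers counted as higher at that p, Cd8b1 was detected on 5 of 10 arrays and Fcgr3 on 6 of 10. Both were dim, at 5.08 in WT and 6.22 in the knockout for Cd8b1, and at 5.52 and 6.13 for Fcgr3. Probes this dim can meet the detection rule mainly through the group where they are higher. Enteric neuron and glia markers had 3 of 4 lower, with a median of -0.45. Of these, 2 (Npy and Uchl1) had an unadjusted p under 0.05, where 6.38% of all tested probes were lower at that p. The mean level of these markers per sample was 7.50 to 8.09 in WT and 7.14 to 7.72 in the knockout. Elavl4, Tubb3, Gfap and S100b were detected on no array. Of the fibroblast markers, 1 of 10 fell past 5%, where 0.0166% of all tested probes passed in either direction. It was Fbln2, an extracellular matrix protein, by -2.28 ± 0.21 (SE; adjusted p = 0.000876, limma), named after its value was seen. At an unadjusted p under 0.05, 1 fibroblast marker was higher (Dpt) and 1 lower (Fbln2), against 5.86% and 6.38% of all tested probes. The ranges of the groups overlapped for the T cell, macrophage, and enteric neuron and glia markers. They also overlapped for smooth muscle markers (8 of 9 higher), fibroblast markers (7 of 10 higher) and fat markers (3 of 5 higher). The same held for the ileal epithelium (6 of 8 lower, 13.11 to 13.62 in WT and 13.19 to 13.48 in the knockout) and the pancreas, with 2 measured of 10 listed. The part of these markers in the clock differences was not tested.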

How the data were processed

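The files hold Illumina bead arrays of biotin-labelled total RNA, 1 per sample. Per the file headers, the deposited non-normalised table gives a linear intensity and a detection p-value per probe and array. The authors' deposited value table holds quantile-normalised intensities that still contain the background, a reading taken from their values. Per the submitters' processing notes lumi was used, and its version and settings are not given in the sources used here.

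Intensities were background-corrected by normexp using the detection p-values, with an offset of 16, quantile-normalised and log2-transformed (neqc, limma 3.58.1, R 4.3.3). All 12039 probes detected on 5 or more arrays were fitted by limma (lmFit, then eBayes) on genotype plus array set, with Benjamini-Hochberg adjustment over all of them. The fit was also run on simulated data with seeded changes, built from its own means and spreads, and the outcome is not reported here. Symbols came from the platform table (23978 of 25697 probes), updated through the Entrez identifier with RefSeq, assembly GRCm38.p6. A gene is represented by its tested probe with the highest mean. A level carries no lower limit from counting, and 5 arrays per group limit the precision.

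Balance, cosine and pair relations are defined where first used. The members and lists were chosen with earlier results of these data known. Named are all members, the 4 genes of each clock list with the lowest p, and the 3 genes most and 3 least like the balance.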

Additional observations from a re-analysis of the deposited data

Results flagged for a closer look

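Arntl in IFNgKO_649 lay far from the other knockout samples. With the array set effect removed, its log2 level was 5.06, while the other 4 were at 5.59 to 5.71, and the gap took up 0.819 of the range of the group, above Dixon's 95% critical value of 0.71 for 5 samples. Chance flags about 5% of groups, and 20 were examined. Npas2 was also lowest, and Nr1d2, Per2 and Per3 highest, in this sample.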

How the results depend on the processing

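No member passed 5% under any of the alternatives run, 13 of processing and 10 that left out 1 sample, and none passed an adjusted p of 10% in the comparison reported. The lowest adjusted p of a member was 0.108, for Per3 under median scaling. The number of probes called over all genes was 2 in the comparison reported, 5 with an offset of 50 or in the authors' value table, 10 under median scaling, 4 with a trended and robust variance, 1 with detection on all 10 arrays or with no array set term, and 0 in array set 1 alone and array set 2 alone (limma); it was 1 to 3 without 1 sample. Median scaling moved the median of all probes to 0.19, that of the members to 0.34 and that of the clock regulators to 0.31. The number of members whose groups did not overlap, 2 as reported, was 0 with detection on all 10 arrays, 1 with no array set term, 5 in array set 1 alone, where 2 samples faced 2, and 1 to 3 without 1 sample, with the 1 reached without IFNgKO_645 or IFNgKO_647. Signs that turned were those of members near 0: Per1 (0.027 under median scaling, -0.36 to 0.050 without 1 sample, positive without WT_640), Nr1d1 (-0.15 in array set 2 alone, -0.070 to 0.20 without 1 sample, negative without WT_640) and Clock (-0.026 with array weights, -0.088 over the mean of its probes, -0.054 to 0.083 without 1 sample, negative without WT_641, IFNgKO_646 or IFNgKO_647). The cause was not tested. The balance kept its sign in all 27 alternatives. The top of the cosine, reported at 8.91 h, ran over 26 alternatives from 7.62 h in array set 1 alone to 13.2 h. The latter was over the members detected on all 10 arrays. Leaving out 1 sample put the count of members at an unadjusted p under 0.05, an alternative chosen after seeing the data, at 3 to 5. Arntl, Per3 and Nr1d2 lie close to background, where the offset sets the size of a difference: with an offset of 50 they differed by -0.39, 0.58 and 0.43. No paired analysis was possible because the sample numbers are not shared between the groups.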
